A study of Mus musculus with 36 samples.

Results

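Autosomal expression was compared between the cultures labelled double and those labelled single during the first 4 days of differentiation of Xmas mouse embryonic stem cells (mESCs). The comparison took the 16 libraries of days 1 to 4 out of the 36 libraries of the series, paired by line and day into 8 pairs, and the 12806 autosomal genes that passed a low filter out of 24483 autosomal genes in the table. Xmas mESCs are female C57/Bl6 lines whose X chromosomes each carry a fluorescent reporter inserted at Hprt, GFP on one and mCherry on the other. Differentiation was started by moving cells in daily steps of 25% out of 2i and LIF, the medium that keeps mESCs naive, into LIF-free serum medium. Cells of the earliest days sampled here can therefore still have been partly in 2i and LIF. The lines are X14 and X18, and on each day there was 1 library of X14 double, X14 single, X18 double and X18 single. What double and single stand for is not given in the labels, so both words serve here as names only. No source says that the days of a line came from separate cultures. The 8 pairs thus come from 2 lines, and p-values measure the spread between these libraries, which may in part be technical.

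As background, 2i holds mESCs in a ground state by blocking the kinase MEK, which acts upstream of ERK, and the kinase GSK3, which restrains Wnt signalling. On leaving 2i the cells switch off naive factors such as Nanog, Prdm14 and Klf2, switch on the de novo DNA methyltransferases Dnmt3a and Dnmt3b with formative genes such as Otx2 and Pou3f1, and later choose a lineage. Genes used in germ cells and meiosis, such as Dazl and Sycp1, carry CpG-rich promoters that are silenced by DNA methylation in most somatic cells.

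Levels are given as RPM, reads per 1000000 reads of the library, and differences as the mean over the 8 pairs of log2 double minus log2 single with its standard error (SE). The 16 libraries held 778762 to 2335736 reads in genes, with medians of 1290000 for double and 1449000 for single, and 3 reads, the floor used here, corresponded to 1.13 to 3.23 RPM. Hprt, where the reporters sit, was at 110 to 140 RPM in the double and at 52.9 to 77.7 RPM in the single libraries. X-linked genes were higher in double by a median of 0.79 to 1.03 on the log2 scale in each of the 8 pairs. Xist was also higher in double in each pair, but early on from few reads. In X18 it had 2 reads in double and 1 in single on day 1, and 6 and 4 on day 2. On days 3 and 4 it had 34 to 89 reads in double and 6 to 14 in single over both lines. On day 0 the X-linked genes of X14 went the opposite way, with a median of -1.10, against 0.80 in X18, and for that reason day 0 was left out. Day 1 of X14 stood apart among the 8 pairs, with an autosomal median of -0.25 against -0.09 to -0.04 in the others, and each call named below was also tested without each pair. All libraries expressed Pou5f1, Sox2 and Nanog, the defining genes of pluripotent cells.

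Among autosomal genes, 852 were called higher in double (6.65% of those tested) and 1370 were called lower (10.7%), a call being an adjusted p under 0.05 in limma over all 13326 genes tested and one sign in both lines. No gene passed the test with opposite signs in the lines. Differences of at least 2-fold were called for 355 genes upwards (2.77%) and 500 downwards (3.9%). The median difference was 0.85 for the genes called higher and -0.78 for those called lower, against -0.08 over all tested autosomal genes. For comparison, 377 of 519 tested X-linked genes were called higher, or 72.6%, and 3 lower. The split between directions depended on the scaling, since 38.3% of the autosomal calls were higher with the deposited scaling, but 51.4% (1112 higher, 1051 lower) when each library was centred on its autosomal median and 49.3% when it was scaled to the autosomal 75th percentile. Of the calls, 505 higher and 755 lower held whichever of the 8 pairs was left out. The levels of all 8 double libraries lay above those of all 8 single libraries for 61 genes (0.476%) and below them for 73 (0.57%).

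Genes called in 1 line mostly went the same way in the other, but some gene lists did not. Across genes, which are not independent replicates, the mean differences of X14 and X18 correlated with r = 0.60, and with r = 0.61 over the 8631 genes at a mean of 10 RPM or more. Tested alone, X14 gave 669 autosomal calls and X18 gave 691, of which 38.3% of the first and 37.0% of the second were shared, 255 genes with the same sign and 1 with opposite signs. The line means had the same sign for 95.7% of the X14 calls and for 91.5% of the X18 calls, against 65.1% of all autosomal genes. A test of whether the difference itself differed between the lines passed for 0 genes in limma after adjustment (lowest adjusted p 0.559, 1125 genes at an unadjusted p under 0.05) and for 0 with voom weights (1179 unadjusted). Of the lists below, some had medians of opposite sign in X14 and X18. They were formative (-0.22 and 0.10), imprinted (-0.34 and 0.20), trophoblast (-0.34 and 0.30) and DNA methylation (-0.38 and 0.02). LIF signalling (-0.08 and 0.17) and autosomal X inactivation factors (-0.12 and 0.02) were the others. The remaining lists kept one sign.

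**Figure D1:**
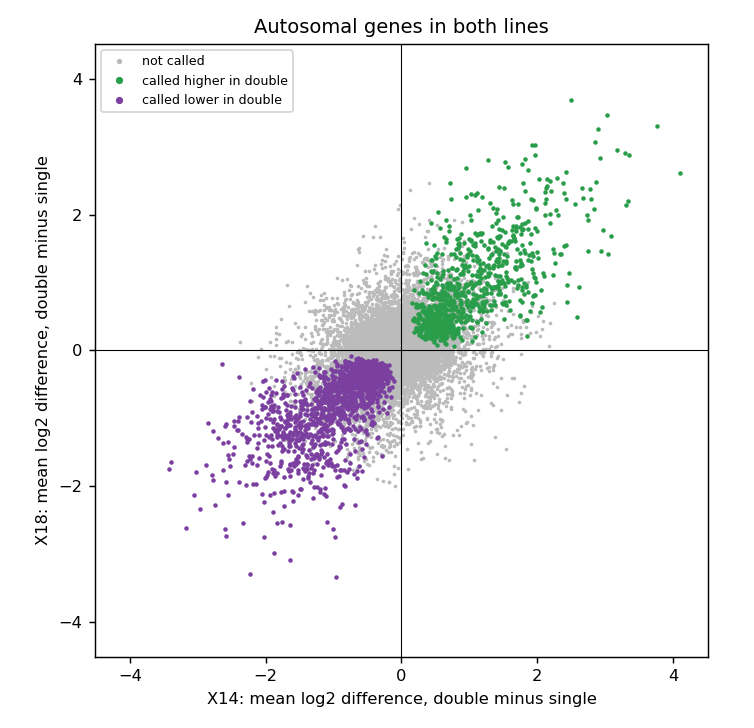
Mean log2 difference, double minus single, over days 1 to 4 in line X14 (horizontal axis) and line X18 (vertical axis), with a point for each of 12806 tested autosomal genes, the 852 called higher in green and the 1370 called lower in purple. The points stretch along the diagonal (r = 0.60), and the called genes lie in the quadrants where both lines have one sign because the call asks for that.

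Genes of meiosis and of the germline were called higher at more than the background rate. Of 16 tested genes of the meiosis list, 6 were called higher and 0 lower, with a list median of 0.34, and of 19 tested germline genes 11 were called higher and 3 lower, with a median of 0.97. At an unadjusted p under 0.05, and with voom weights, 0 meiosis genes were lower as well. The backgrounds, here and for each list below, are the 6.65% and 10.7% of all autosomal genes and the median of -0.08 above. The lists held 25 meiosis and 26 germline genes before the filter, which asks for 1 RPM in 4 of the 16 libraries. A gene can pass it through 1 label alone, as Asz1 did (at most 0.488 RPM in single). Such a gene can be called only towards that label. All 6 meiosis calls and 10 of the 11 germline rises held whichever pair was left out. After a trend on GC content was removed from each library, 5 meiosis genes were higher and 1 lower, and 11 germline genes were higher and 3 lower.

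Sycp1 (mm10 chr3:102818499-102936100, minus strand) encodes the transverse filament of the synaptonemal complex, which zips paired chromosomes together in meiosis. It was at 24.9, 48.2 and 65.5 RPM (lowest, median and highest of 8 double libraries) against 5.85, 7.65 and 12 RPM in the 8 single libraries. The groups did not overlap, and the difference was 2.42 (SE 0.18, adjusted p = 3.32e-06, higher in 8 of 8 pairs). Smc1b (chr15:85064691-85131957, minus strand), a meiotic cohesin subunit, was at 39.4, 92.0 and 123 RPM in double and 6.47, 20.6 and 28.8 RPM in single. Every double library stood above every single one, by 2.42 (SE 0.28, adjusted p = 7.98e-05). Hormad1, a protein of the unpaired chromosome axis, was at 105, 132 and 291 RPM in double against 25.9, 70.4 and 90.2 RPM in single, again without overlap (1.20, SE 0.17, adjusted p = 0.000371). Its relative Hormad2 (0.80), the synaptonemal complex protein Syce1 (1.41) and Tex15, which is needed for meiotic recombination and silencing in male germ cells (0.91), also rose, each with overlapping groups. Tex15 lost its call after the GC trend was removed.

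Dazl (chr17:50279394-50293599, minus strand), an RNA-binding protein of germ cells, had the lowest adjusted p of the named genes. Its level fell over the 4 days in both groups, from 387 and 307 RPM in X14 and X18 double on day 1 to 36.3 and 33.2 RPM on day 4, and from 112 and 69.0 to 9.70 and 13.5 RPM in single. Pooled over days the groups overlapped, but on each day both double libraries stood above both single ones, and the difference was 1.72 (SE 0.10, adjusted p = 5.86e-07). Tuba3b, a tubulin of the testis, was at 6.19, 15.1 and 27.9 RPM in double and 0, 1.36 and 5.39 RPM in single, without overlap (3.36, SE 0.37, adjusted p = 6.15e-05). Tuba3a and Tuba3b are near-identical copies that can share reads, so the split between them is uncertain. Asz1, a piRNA pathway protein, was nearly absent from single, with 1 read over the 8 libraries against 97 reads in double, and no fold is given for it. Tex19.2 (2.77, SE 0.27, adjusted p = 2.21e-05) and Gtsf1 (1.84, SE 0.29, adjusted p = 0.000819), both tied to the control of transposons in germ cells, also rose, with overlapping groups. The other germline rises were Slc25a31, Tex101, Tex19.1, Mael, Sohlh2 and Tuba3a, and Tuba3a lost its call in 2 of the fits without a pair. The 3 germline genes called lower were Tdrd5, a piRNA pathway protein, which fell by 2.14 (SE 0.39, adjusted p = 0.00209), and Dnd1 and Ddx4, which lost their calls in 6 and 1 of the 8 fits without a pair.

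The promoters of the members called higher were searched for shared motifs, and some matches are shown so that the letters can be compared. Of the 35 tested members of both lists, 17 were called higher, 3 lower and 15 were not called. A promoter here is the 300 bases from 250 before to 50 after a start site, from RefSeq (GRCm38.p6, the assembly of mm10), and 16 of the 17 meiosis and germline genes called higher had an entry, with a median of 17 CpG sites, against 18 for all tested members of both lists and 21 for all tested autosomal genes. Both strands were searched for CACGTG, an E-box motif bound by factors such as Myc and Max, and for GGCGGGAA or TTCCCGCC, an E2F-like motif. CACGTG was present in 4 of the 16 (25%) and in 10 of the 32 tested members with an entry (31.2%), so it was not more frequent in those called higher, against 10.5% of the promoters of tested autosomal genes and 7.23% of all 25748 autosomal promoters. The E2F-like motif was present in 4 (25%) and in 5 of the 32 (15.6%), against 4.28% and 2.23%. The 4 include the near-identical copies Tuba3a and Tuba3b, whose windows share a stretch around the motif, so these are not separate matches. Windows of 30 bases around a match follow, written 5′ to 3′ on the gene's strand with the motif in capitals: Sycp1 at chr3:102936177-102936206 (minus strand), Hormad1 at chr3:95559608-95559637 (plus), Mael at chr1:166238950-166238979 (minus), Slc25a31 at chr3:40708766-40708795 (plus), Tuba3a at chr6:125286183-125286212 (minus) and Tuba3b at chr6:145615845-145615874 (plus).
Sycp1: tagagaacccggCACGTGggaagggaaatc
Hormad1: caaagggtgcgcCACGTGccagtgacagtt
Mael: taccaggcctacCACGTGacaatccccgcc
Slc25a31: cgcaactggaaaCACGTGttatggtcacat
Tuba3a: actccagagccTTCCCGCCaaagccacatc
Tuba3b: actccagagccTTCCCGCCaaatttacatc
Hormad1 held a second CACGTG and a GGCGGGAA in the same promoter, and Slc25a31 held a TTCCCGCC after its start site. A match describes the letters only, and 10 of the 16 promoters held neither motif in this window, those of Dazl, Asz1, Gtsf1, Smc1b, Hormad2, Sohlh2, Syce1, Tex101, Tex19.1 and Tex19.2.

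Aqp3 (chr4:41092722-41098183, minus strand), a membrane channel for water and glycerol, was the other marker given for the comparison. It fell steeply over the 4 days in both groups and stayed higher in double throughout. Over the 8 libraries it was at 6.76, 118 and 296 RPM in double and 0.647, 14.6 and 113 RPM in single, the lowest single value being under the floor of 3 reads. The groups overlapped over days but not within any day, and the difference was 2.46 (SE 0.31, adjusted p = 0.000178). By day the differences were 1.04, 2.62, 3.51 and 3.51 in X14 and 1.39, 1.42, 4.18 and 2.01 in X18. It was not shared by the family, since of the 3 tested aquaporins Aqp9, a channel for small solutes, fell, with 6 reads in double and 35 in single (adjusted p = 0.00203).

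**Figure D2:**
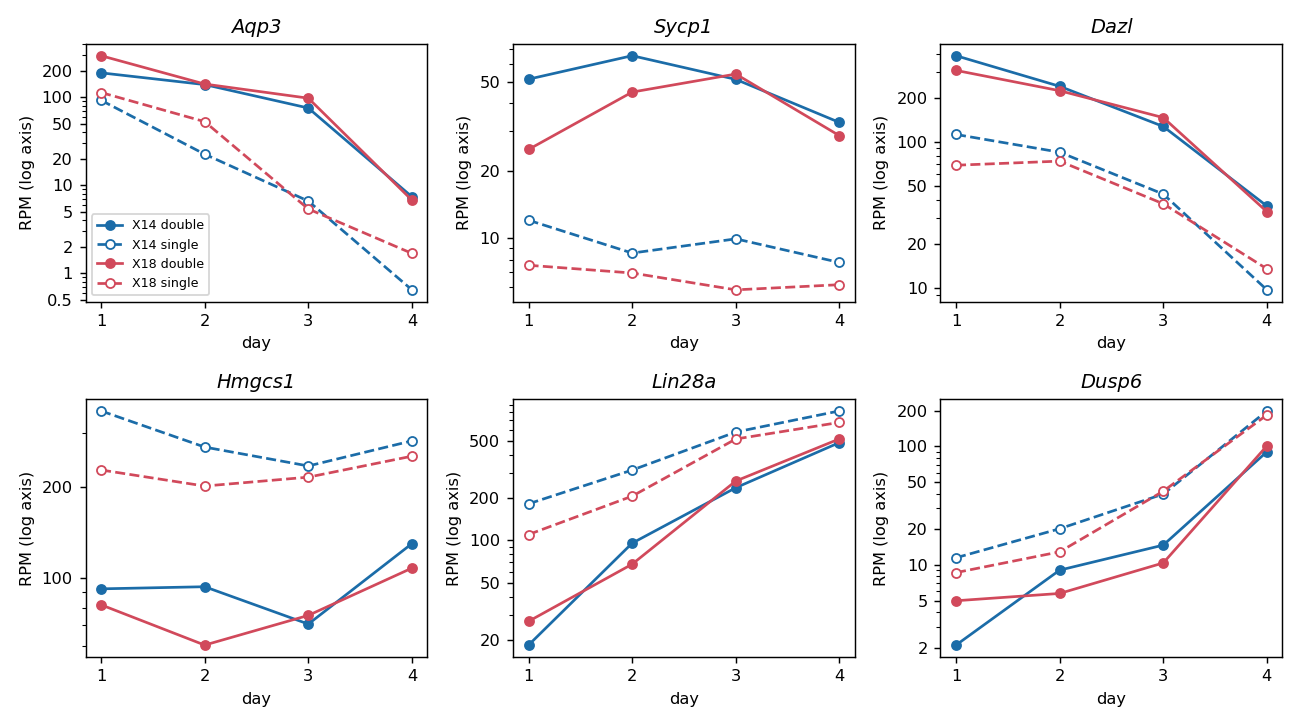
Levels in RPM (log axes) on days 1 to 4 of Aqp3, Sycp1, Dazl, Hmgcs1, Lin28a and Dusp6 in X14 double, X14 single, X18 double and X18 single, 1 library per point. On every day both double libraries lie above both single ones for Aqp3, Sycp1 and Dazl and below them for Hmgcs1, Lin28a and Dusp6, while levels change with the day.

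The 15 largest rises, among genes changed at least 2-fold with one sign in all 8 pairs and a mean of 10 RPM or more in the label where they are higher, ran from 2.42 to 3.36. Besides Tuba3b, Tex19.2, Aqp3 and Smc1b they were Rcsd1, Iqca, Nlrp4c, Cyp7b1, Mep1b, Fgfbp1, Pramel6, Tppp3, Car2, D14Ertd668e and Pramel7. All 15 were called in each fit that left out a pair. Nlrp4c, of an oocyte-expressed NLRP family, was at 59.4, 73.5 and 104 RPM in double and 3.90, 9.85 and 21.8 RPM in single. The groups were far apart, by 3.07 (SE 0.28, adjusted p = 1.48e-05), although reads may be shared within the family. Cyp7b1, a hydroxylase of oxysterols, was at 9.41, 12.4 and 15.2 RPM in double against 0.777, 1.19 and 2.98 RPM in single (3.06, SE 0.26, adjusted p = 8.82e-06). Its single level rests on 21 reads over the 8 libraries, so the size is uncertain. Fgfbp1, which releases FGFs from the matrix, rose by 2.67 (SE 0.26) and Rcsd1, an actin-capping regulator, by 3.09 (SE 0.41), both without overlap. Car2, a carbonic anhydrase, rose by 2.52 (SE 0.28) with overlapping groups. Pramel6 and Pramel7, genes of the naive state that can share reads, were near 0 on day 4. Their groups overlapped, and in 2 pairs of Pramel6 and 1 of Pramel7 neither library had a read, so that the sign there came only from the value the authors wrote for 0 reads.

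The 15 largest falls ran from -2.76 to -2.14 and included Ap1m2, Eif4g3, Ttc23, Ptrf, Zfp523, Eno3, Crb3, Cxcl12, Crmp1, Plod1, Sort1, Ece1, Plac8 and Zmat4, and all 15 held whichever pair was left out. Eif4g3, a translation initiation factor, was at 0.998, 6.34 and 12.4 RPM in double and 15.1, 35.4 and 57.6 RPM in single. All double libraries lay below all single ones, and it fell by 2.66 (SE 0.32, adjusted p = 9.66e-05). Ptrf, the caveolar coat protein cavin-1, was at 0.704, 2.68 and 5.75 RPM against 9.70, 14.8 and 22.2 RPM, also without overlap (-2.59, SE 0.40, adjusted p = 0.000617). Ap1m2, the epithelial subunit of the AP-1 sorting adaptor, fell by 2.76 (SE 0.37) with overlapping groups, and so did Crb3, a polarity protein of the apical membrane (-2.43, SE 0.34). Plod1, a collagen lysyl hydroxylase, fell by 2.28 (SE 0.39) without overlap. Cxcl12, a chemokine, and Plac8 overlapped between the groups, and each had 1 pair without a read in either library.

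**Figure D3:**
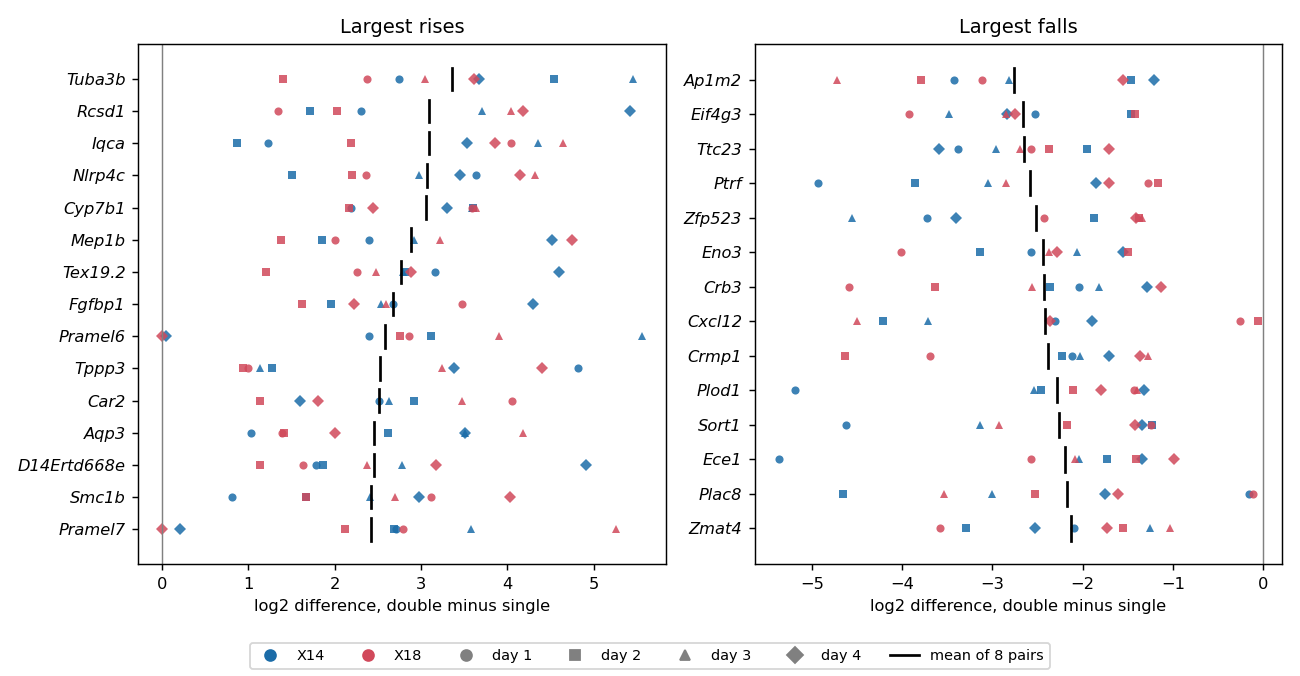
Log2 difference, double minus single, in each of the 8 pairs (colour for the line, shape for the day) for the largest rises and falls named in the text, with the mean as a black bar. The genes were chosen for one sign in all 8 pairs, so no point crosses 0, and the points next to 0 for Pramel6, Pramel7, Cxcl12 and Plac8 include pairs without a read.

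Naive pluripotency genes tended to be higher in double, while some genes of the next state were lower. Of 18 naive genes, 8 were called higher and 0 lower (median 0.51, with 1 lower at an unadjusted p under 0.05 and 1 with voom weights), and 16 of 18 had a positive mean. Prdm14 (chr1:13113457-13127163, minus strand), a repressor of DNA methylation and of FGF signalling, was at 3.94, 64.3 and 90.9 RPM in double and 0, 18.9 and 52.4 RPM in single. The groups overlapped, and the difference was 2.04 (SE 0.30, adjusted p = 0.000439). Nanog (chr6:122707489-122714633, plus strand), a core factor of naive cells, was at 196, 1490 and 2950 RPM in double and 36.9, 683 and 1610 RPM in single, and both double libraries exceeded both single ones on each day (1.35, SE 0.18, adjusted p = 0.000246). Dppa3, a regulator of DNA methylation in oocytes and early embryos, rose by 1.23 (SE 0.19), Fbxo15, an F-box protein of ES cells, by 1.17 (SE 0.20) and the Krüppel-like factor Klf2 by 0.88 (SE 0.21). Dppa2 and, less firmly, Tcl1 and Dppa5a were called as well. Tcl1, an activator of AKT, lost its call in 4 of the 8 fits that left out a pair (highest adjusted p 0.0915) and Dppa5a in 6.

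Among 6 core pluripotency genes 1 was called higher and 2 lower. Lin28a (chr4:134003330-134018841, minus strand), which blocks the maturation of let-7 and rises as cells leave the naive state, was at 18.3, 165 and 519 RPM in double and 110, 416 and 817 RPM in single. It climbed over the 4 days in both groups and was lower in double on each day, by 1.51 on average (-1.51, SE 0.24, adjusted p = 0.000845). Utf1 was lower by 0.48 (-0.48, SE 0.08) and Sox2 higher by 0.36 (SE 0.09), and Utf1 was not called after the GC trend was removed. The formative list had 3 genes called higher and 6 lower of 18 (median -0.12). Dnmt3a was at 40.9, 113 and 421 RPM in double and 47.4, 235 and 842 RPM in single, with overlapping groups (-0.94, SE 0.16, adjusted p = 0.00142). Dnmt3b moved with it (-0.87, SE 0.16, adjusted p = 0.00222), as did the transcription factors Sall2 (-1.48, SE 0.33), Etv4 (-0.84, SE 0.17) and Sox11 (-0.81, SE 0.17). Pou3f1 also fell (-1.07, SE 0.34, adjusted p = 0.0436), but its call was lost in 6 of 8 fits without a pair, up to an adjusted p of 0.116. The 3 formative genes called higher were Otx2, Nodal and Grhl2, and of these Grhl2 lost its call in 6 of those fits. Of 13 genes of DNA methylation 1 was called higher, Dppa3, and 4 lower, namely Dnmt3a, Dnmt3b, Mbd3 and Trim28, of which Trim28 lost its call in 3 of those fits and Mbd3 and Trim28 were not called after the GC trend was removed.

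Several genes that respond to ERK signalling were lower in double. Of 19 tested, 8 were called lower and 1 higher (median -0.38), and 7 of the 8 falls held whichever pair was left out. Dusp6 (chr10:99263231-99267488, plus strand), a phosphatase that ERK induces and that inactivates ERK, was at 2.11, 9.70 and 101 RPM in double and 8.62, 29.9 and 199 RPM in single. It rose over the days in both groups, and on each day both double libraries lay below both single ones (-1.38, SE 0.19, adjusted p = 0.000263). The feedback inhibitors Spry4 (-1.69, SE 0.28), Spry2 (-0.92, SE 0.17) and Spred1 (-1.14, SE 0.18) fell, as did the phosphatase Dusp4 (-1.36, SE 0.34) and the transcription factor Myc (-1.61, SE 0.32). For Spry4 neither library had a read in 1 pair, and for Dusp4 in 2. Etv4 and Ccnd1 were the other falls, Ccnd1 losing its call in 2 of the fits without a pair, and Dusp1 was the rise. Among 6 Wnt targets, Axin2, a feedback inhibitor, and Tcf7, a transcription factor of the pathway, were called lower, and each lost its call in 5 of 8 fits without a pair (adjusted p up to 0.0914 and 0.0889). Of 11 genes of LIF signalling, Il6st, the shared receptor chain gp130, rose by 0.68 (SE 0.13), and Pim1, a kinase induced by STAT3, was called higher but lost the call in 4 of those fits.

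Several targets of p53 were higher in double. Of 10 tested, 6 were called higher and 0 lower (median 0.42), also 0 lower at an unadjusted p under 0.05 and with voom weights. Cdkn1a, the cell cycle inhibitor p21, was at 117, 149 and 175 RPM in double and 64.7, 95.9 and 133 RPM in single. The groups overlapped, but it was higher in 8 of 8 pairs (0.66, SE 0.13, adjusted p = 0.00323). Ccng1 (0.53, SE 0.08), Perp (0.82, SE 0.16) and Mdm2, the ligase that degrades p53 (0.49, SE 0.09), rose in 8 of 8 pairs too. Gdf15 and Trp53inp1 lost their calls in 5 and 3 of the fits without a pair (adjusted p up to 0.0976 and 0.0612).

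Of 27 imprinted genes, which are expressed from one parental copy, 3 were called higher and 5 lower (median -0.08, as for all genes). These shares are 11.1% and 18.5%, against 6.65% and 10.7% of all tested autosomal genes. All 8 calls held whichever pair was left out. Ndn, a growth suppressor, was at 16.1, 23.3 and 35.9 RPM in double and 6.22, 7.19 and 15.1 RPM in single. These did not overlap (1.47, SE 0.17, adjusted p = 6.7e-05). Plagl1, a zinc finger protein, rose by 1.44 (SE 0.29), and Slc38a4 was the third rise. Nnat (-1.52, SE 0.27), the non-coding RNA Meg3 (-1.48, SE 0.23), Phlda2 (-1.32, SE 0.26) and Grb10, an adaptor that restrains insulin and IGF signalling (-1.01, SE 0.20), fell with Gnas.

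In cholesterol synthesis, 3 genes were called lower and 2 higher of 17. These shares are 17.6% and 11.8%, against 10.7% and 6.65% of all tested autosomal genes. Hmgcs1 (chr13:119690462-119708086, plus strand), an early enzyme of the mevalonate pathway, was at 60.3, 87.0 and 130 RPM in double and 201, 243 and 355 RPM in single. The groups did not overlap, and it was lower by 1.53 (-1.53, SE 0.10, adjusted p = 7.86e-07), 2.89-fold. Insig1, which holds SREBP in the endoplasmic reticulum, went the other way, from 98.1, 131 and 167 RPM in single to 145, 184 and 249 RPM in double. The groups overlapped, and it rose by 0.51 (SE 0.08, adjusted p = 0.000498). Mvk and Lss were called lower, but each lost the call in 6 of 8 fits without a pair (adjusted p up to 0.0792 and 0.0748).

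Of 18 glycolysis genes, 3 were called higher (16.7%) and 4 lower (22.2%), with a median of -0.11. All tested autosomal genes had 6.65% and 10.7%. Eno3, an enolase of muscle, fell by 2.44 (SE 0.25) and Pdk1, which keeps pyruvate out of the mitochondria, by 0.73 (SE 0.11). Pfkl and Pkm were lower and the glucose transporter Slc2a3 (0.57, SE 0.11) and Pfkp (0.45, SE 0.12) higher. The third rise was Slc2a1 (0.29, SE 0.08). Pkm lost its call in 4 and Slc2a1 in 3 of the fits without a pair. Of 13 genes of threonine, serine and one-carbon metabolism, 4 were lower and 0 higher, with 1 higher at an unadjusted p under 0.05 and 1 with voom weights. Gcat, which acts in the breakdown of threonine, and the glycine decarboxylase Gldc were lower by 0.66 and 0.46 (-0.66, SE 0.11, and -0.46, SE 0.08). Mthfd1l and Mthfd1 lost their calls in 3 and 4 of the fits without a pair. The median of this list was -0.07 and turned to 0.00 when libraries were centred on the autosomal median.

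Autosomal factors of X inactivation were mostly not called, with 3 higher and 1 lower of 18 (median -0.05). These shares are 16.7% and 5.56%, against 6.65% and 10.7% of all tested autosomal genes. Ciz1, which anchors Xist RNA to the nuclear matrix, was at 0.998, 2.74 and 4.79 RPM in double and 7.33, 9.28 and 14.6 RPM in single. The groups did not overlap (-1.90, SE 0.31, adjusted p = 0.00107). The Polycomb subunits Pcgf5 (0.50, SE 0.13), Pcgf3 (0.44, SE 0.14) and Suz12 (0.42, SE 0.11) were called higher, and none of them was called after the GC trend was removed. With that trend removed, 0 of the list were called higher and 3 lower, namely Ciz1, Ctcf and Smchd1. Of 16 subunits of the BAF chromatin remodeller, 5 were called lower and 0 higher (median -0.26), also 0 higher at an unadjusted p under 0.05 and with voom weights. They were Smarcd3, Smarcd1, Smarca4, Smarcd2 and Smarcc1, and of these Smarcd1 (-0.67, SE 0.13, adjusted p = 0.00333) was the one that held whichever pair was left out. After the GC trend was removed 2 of the 16 were called lower, and with autosomal centring 3. Smarca4, the ATPase, lost its call in 7 of the 8 fits without a pair and Smarcc1 in 4 (adjusted p up to 0.115 and 0.0863). The fall was mainly in X14, with a list median of -0.51 there and -0.11 in X18. Smarca4 stood at -0.75 in X14 and -0.08 in X18, and Smarcc1 at -0.59 and -0.20.

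Zscan4 genes, which mark the rare two-cell-like state of mESC cultures, were lower in double on days 1 to 4. Of 6 tested genes of that list 3 were called lower (median -1.31). Zscan4d was at 0, 3.92 and 12 RPM in double and 4.53, 13.8 and 21.6 RPM in single, with overlapping groups (-1.93, SE 0.30, adjusted p = 0.000789). Zscan4c fell by 1.85 (SE 0.40), and Zscan4f had 3 reads in double and 24 in single and lost its call in 4 of 8 fits without a pair. The genes are near-identical copies, so they may count the same reads. On days 5 to 8 the direction was opposite, with a list median of 2.81.

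Markers of other cell types moved in both directions. The 11 genes of the trophoblast list summed to 124 to 196 RPM in double and 75.6 to 105 RPM in single, without overlap, but most of the gap was Tfap2c, with a mean of 103 RPM in double and 46.8 RPM in single. The list median was -0.02 and 3 of 7 tested members had a positive mean, with Tfap2c (1.70, SE 0.32, adjusted p = 0.00271) and Gata3 (2.15, SE 0.43, adjusted p = 0.00352) called higher and Krt7 lower. Gata3 had only 74 reads in double and 11 in single, so the size of its rise depends in part on the value written for 0 reads. Krt7 had 24 and 44. The defining markers Cdx2 and Tpbpa had 0 reads in all 16 libraries, and Tfap2c is also expressed in naive mESCs and germ cells. Krt7 lost its call in 5 of 8 fits without a pair. The 17 markers of extraembryonic endoderm summed to 490 to 826 RPM in double and 411 to 775 RPM in single. Its laminin chains Lama1 (-1.63, SE 0.36) and Lamb1 (-0.94, SE 0.29) were called lower and Col4a1 higher (0.93, SE 0.24), and Lamb1 lost its call in 4 of 8 fits. Fibroblast markers (421 to 1230 against 346 to 1270 RPM) and neural markers (64.8 to 259 against 121 to 195 RPM) overlapped, and 0 of 5 and 0 of 6 tested were called in limma. At an unadjusted p under 0.05 these were 0 and 2 (Sox1 and Olig2, lower), and with voom weights 0 and 1. Of 6 genes of the primitive streak, 5 had a positive mean and 2 were called higher (median 0.58). Lefty2, an inhibitor of Nodal, rose from 11.2, 21 and 31.8 RPM in single to 35.2, 54.7 and 79.4 RPM in double (1.38, SE 0.21, adjusted p = 0.000598). Eomes was called higher as well, but lost the call in 7 of 8 fits. In such bulk samples fewer cells of a type and less RNA per cell cannot be told apart.

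**Figure D4:**
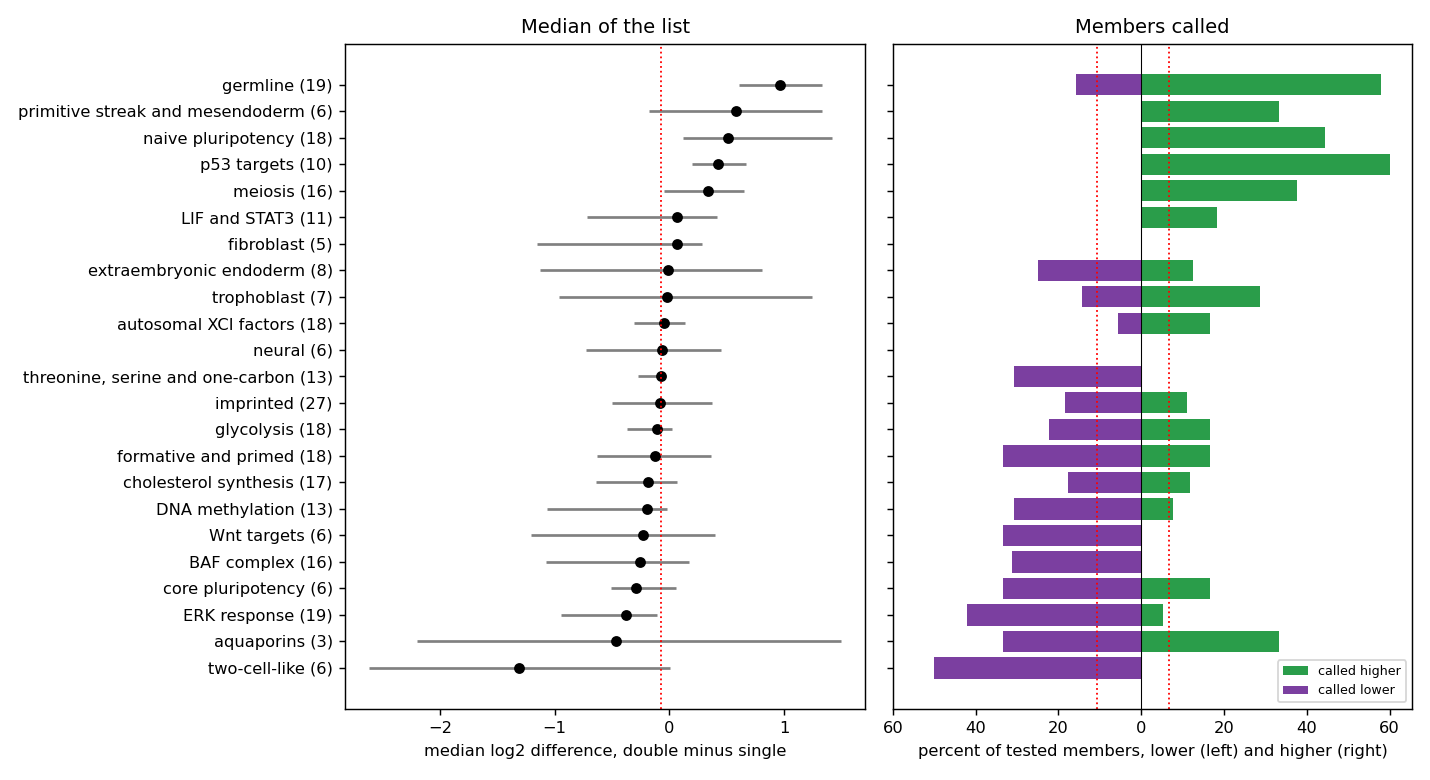
For 23 gene lists (tested members in brackets), the left panel gives the median log2 difference, double minus single, as a point with a bar from the lowest to the highest of the 8 pair medians, and the right panel the percent of tested members called lower (purple) and higher (green). Red dotted lines mark all tested autosomal genes (median -0.08, 10.7% lower, 6.65% higher), and germline (median 0.97) lies furthest to the right and the two-cell-like list (-1.31) furthest to the left.

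Few genes were called for a change of the difference with the day, which does not show that it was constant for the others. A linear trend of the difference over days 1 to 4 was called for 71 autosomal genes (0.554%), 1410 at an unadjusted p under 0.05, with the difference rising in 65 and falling in 6. Those that fell were Gadd45a, Pmaip1, Gm10705, Ctsl, Slc5a2 and E230016M11Rik. The following were picked after their values were seen. Apoe, a lipid carrier, was lower in double on days 1 and 2 and higher on days 3 and 4 in both lines (slope 0.64 per day, adjusted p = 0.00221), and its mean difference was 0.07. Stra8, the gene that retinoic acid induces at meiotic entry, had a slope of 1.48 per day (adjusted p = 0.00509) and a mean difference of 0.43 that was not called. Of the 18 naive genes 5 had a rising difference, namely Tcl1 (1.30 per day, adjusted p = 0.0107), Prdm14 (0.83, adjusted p = 0.0193), Tfcp2l1 (0.77, adjusted p = 0.0351), Klf2 (0.60, adjusted p = 0.017) and Nanog (0.50, adjusted p = 0.0247). Other members of the lists with a rising difference were Tfap2c (0.95, adjusted p = 0.00734), Lefty1 (0.91), Tuba3a (0.56), Dnmt3l (0.56), Sparc (0.36) and Lin28a, whose deficit shrank (0.68, adjusted p = 0.0158). The count of trends rested on few libraries, with 6 without day 4 of X14, 12 without day 4 of X18, 118 and 132 without day 1 of X18 or X14, and 0 in X18 alone.

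After day 4 the differences of the genes called on days 1 to 4 were smaller, while those of several gene lists were larger. The genes called on days 1 to 4 were followed on days 5 to 8, which had no part in choosing them. Of those called higher, 501 (58.8%) were higher in both lines, against 29.4% of all autosomal genes, and of those called lower 891 (65.0%) were lower in both, against 38.4%. Among genes called at 2-fold or more, the median of those higher went from 1.43 on days 1 to 4 to 0.43, and the median of those lower from -1.39 to -0.33. On day 5 the median of those higher was 0.66 in X14 and 0.85 in X18, and by day 8 it was 0.25 and -0.30. Some of the fall is set by the choice of the genes on days 1 to 4. Genes without reads on days 5 to 8 stand at a value set only by library depth, as Asz1 and Pramel6 did (-0.30 in X14 and 0.20 in X18). Their share was not counted, so the late medians of the called genes may in part show that value. List medians, taken over all tested members, went from 0.51 on days 1 to 4 to 1.14 on days 5 to 8 for naive pluripotency, from 0.34 to 0.79 for meiosis, from -0.12 to -0.89 for the formative list, from -0.38 to -0.72 for ERK response, from -0.19 to -0.59 for cholesterol synthesis and from -0.07 to -0.41 for one-carbon metabolism. The germline median was 0.97 and then 0.98, and that of p53 targets 0.42 and then 0.32. The medians of the primitive streak (0.58 to -0.85) and trophoblast (-0.02 to 1.39) lists moved across 0. Of single genes, picked after their values were seen, several stayed far from 0. Aqp3 stood at differences of 3.80 in X14 and 3.79 in X18 on days 5 to 8, Nlrp4c at 3.59 and 3.54, Sycp1 at 2.88 and 2.39, Hormad1 at 2.89 and 1.86 and Fbxo15 at 2.27 and 2.00. Cyp7b1 (0.69 and -0.14) was near 0, and Nanog (-0.38 and -0.50) and Plagl1 (-1.21 and -0.86) were on the other side. Tuba3b stood at -0.30 and 0.24, but Asz1, Iqca and Pramel6 had the same X14 value. Such a shared value comes from genes without reads, so for Tuba3b it measures no difference.

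**Figure D5:**
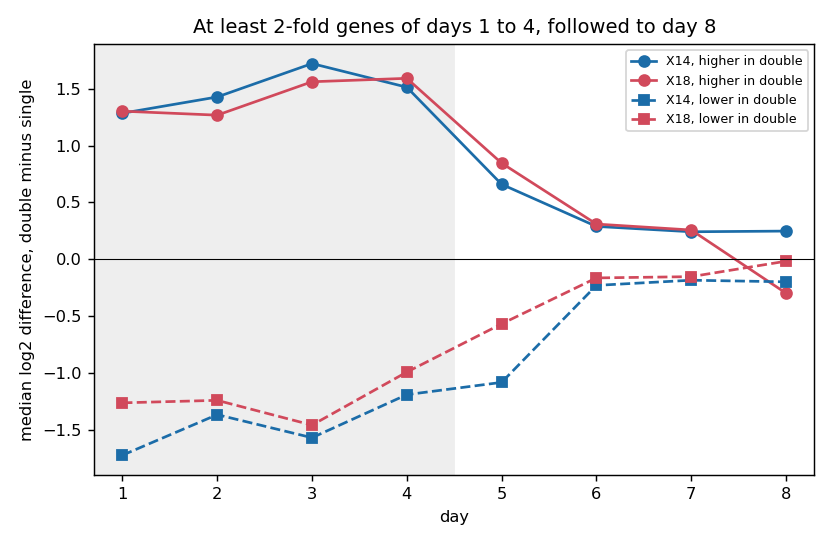
Median log2 difference, double minus single, by day in X14 and X18 for the autosomal genes called at 2-fold or more on days 1 to 4, higher (solid) and lower (dashed). Days 1 to 4, shaded, chose the genes, and on days 5 to 8 the medians move towards 0, to 0.25 in X14 and -0.30 in X18 for the higher set on day 8. Genes without reads on a day stand at a value set by library depth, which these medians may in part show.

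The differences were spread over all 19 autosomes. For each chromosome the median difference of its genes, relative to that of all tested autosomal genes, was taken in each pair, and the mean over pairs lay between -0.06 and 0.07. A two-sided exact permutation test was run over the 8 pairs (smallest p 0.00781). Chromosomes 1, 13, 14 and 16 lay above and 7, 15, 17 and 19 below, each at an adjusted p of 0.0371. The test takes the days of a line as independent, although they may share a culture. Its p-values thus describe the spread between these pairs and cannot tell whether the shifts would recur in other lines. These small shifts went with base composition. Across the 19 autosomes the shift and the median GC content of the genes had r = -0.91, given as a description. With genes in 5 equal bins by GC content of the longest transcript, the median difference went from 0.03 in the lowest to -0.22 in the highest, the share called lower from 4.21% to 18.8% and the share called higher from 8.54% to 5.04%. Without day 1 of X14 the medians were 0.02 and -0.16. After the GC trend was removed from each library, the chromosome means lay between -0.03 and 0.01, with 0 of 19 at an adjusted p under 0.05 by the exact test and 847 genes called higher and 1346 lower. Median GC was 48.7% for the genes called higher, 53.6% for those called lower and 50.2% for all, and median exon length was 2714, 3516 and 3536 bases. The part of base composition in the differences of single genes was otherwise not tested.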

How the data were processed

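The study sequenced 75 bp single-end reads, trimmed them with trim_galore, aligned them to mm10 with tophat or hisat2 (TopHat2 2.0.12 in the submitters' processing notes) and quantified genes in SeqMonk. The annotation version and the use of strand in counting are not given in the sources used here, so reads of a gene and of an antisense partner cannot be told apart. The values deposited by the authors are log2 values. Their name calls them log CPM, but they scale with exon length and are log2 RPKM, and the authors wrote 0.9 read in place of 0. Whole reads were recovered for 100% of 25965 genes within 0.02 read and gave depth, RPM and floors. Every value column belonged to a library of the series (0 columns without one).

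Genes at 1 RPM or more in at least 4 of the 16 libraries were tested. A gene read in 1 label alone could pass, and it could then be called only towards that label. Log2 values were fitted with limma 3.58.1 (trend) in R 4.3.3 with the pair of line and day as a block, two-sided, with Benjamini-Hochberg adjustment over 13326 genes. A fold change of a gene is the same in RPKM and RPM. The interaction of label with line and its linear trend over days were tested in the same way. Deviations of the libraries of a pair from their group means correlated in all 8 pairs (r 0.22 to 0.63). Libraries of a label and day from the 2 lines differed by more than sampling noise (chi-squared per gene 1.24 to 12.5).

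Named genes are Aqp3 and Sycp1, the 15 largest rises and 15 largest falls as defined in the text, and 2 to 6 members of each of 23 lists, called ones first by size. Others are named where a count was small. The part of the series, the lists and the rules were chosen with earlier results of these data known. Alternatives were other scalings, filters and pseudocounts, voom weights on recovered reads, thinned reads, length correction, no block, culture means, days 1 to 8 in the fit, each line alone and each pair left out. Removal of a GC trend was chosen after seeing the data. Floors cover counting error only. The main test was also run on simulated reads, drawn independently for each library around the mean of its pair. Such reads hold no dependence among the days of a culture, so this run cannot judge the calls in that respect. Some genes that meet these rules are not reported here.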

Additional observations from a re-analysis of the deposited data

Results flagged for a closer look

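In 12 of the 117 named genes, and in the median over autosomal genes, the first day of X14 lay apart from the other 7 pairs by more of the whole range than Dixon's 95% limit for 8 values allows. Chance alone flags about 1 in 20 such groups. Its log2 differences, double minus single, were -5.19 for Plod1, -5.37 for Ece1, -1.35 for Tcf7, -0.0125 for Il6st, -1.03 for Trim28, -3.32 for Lamb1, -1.53 for Lss, -0.248 for Slc2a3, -1.55 for Pfkl, -0.825 for Pkm, -1.05 for Mthfd1 and -1.63 for Smarcd1. The autosomal median of that pair was -0.252. In all of them that pair was the lowest. The calls of these 12 genes held without that pair.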

How the results depend on the processing

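Directions of the named genes were stable, with 2378 of 2666 alternative values on the same side of the threshold, 283 past it no longer and 5 reversed, the cause of which was not tested. The reversed values belong to genes that were not called, Nes (0.0591 in X18 alone) and Fn1 (0.0134 with autosomal centring, 0.0132 without the GC trend, 0.300 in X18 alone and -0.137 to 0.113 when each pair was left out). Without centring, chromosomes 1, 13, 14 and 16 had medians of -0.0237, -0.0131, -0.0335 and -0.0313, and without the GC trend chromosome 17 had 0.0048.

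With day and line as covariates and no replicate block, 965 genes were called higher and 1556 lower (372 and 532 at 2-fold), so the pairing moved no count by over 1.5 times. With a mean of 10 RPM or more, 125 and 156 were called at 2-fold, fewer genes being tested. In X18 alone (without replicates 1 and 2) 327 were called higher and 364 lower (171 and 135 at 2-fold) with 0 trends over days, and in X14 alone (without replicates 3 and 4) 300 and 369 (200 and 259) with 34 trends. The calls of a line alone moved to 1102 in X14 and 1082 in X18 with a pseudocount of 1 RPM, to 212 and 394 with reads thinned to one depth (38 trends), and to 257 in X18 with no filter. Leaving out each pair gave 591 to 1028 calls higher, 892 to 1426 lower, 290 to 362 and 395 to 496 at 2-fold, 6 to 132 trends, 161 to 517 in X14 alone and 32 to 471 in X18 alone, the last 2 lowest without day 3 of that line. Depth limits low genes: 31 of the 855 genes called at 2-fold had 3 reads or fewer over the 8 libraries of a label.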

Other observations

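Beyond the lists, tested autosomal genes were grouped by the stem of their symbol, which gave 354 families of 5 members or more. The families below were picked after their values were seen, and no test was run on them. Over all tested autosomal genes 6.65% were called higher and 10.7% lower. Of 17 genes of the Mapk stem, which holds MAP kinases and their partners, 9 were called lower in double and 0 higher (median -0.55, against -0.08 for all tested autosomal genes). Of 6 alpha-tubulin genes Tuba1a, Tuba1c, Tuba3a and Tuba3b were called higher and Tuba4a lower, and reads may be shared between them. Of 7 genes of the STAT stem Stat5a, Stat2 and Stat6 were called lower, and of 8 proteasome alpha subunits Psma1, Psma2 and Psma4 were called higher. The other proteasome stems did not follow. Psmb had 1 higher and 0 lower of 10, Psmc 0 and 1 of 7, Psmd 0 and 0 of 13 and Psme 1 and 1 of 5.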
